A study of Bos taurus with 17 samples.

Results

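The S100 proteins described here are 10 genes of the cow, S100A1, S100A2, S100A4, S100A6, S100A8, S100A9, S100A10, S100A11, S100A12 and S100A13, each measured by 1 probe among the 21475 non-control probes of an Agilent bovine array. A probe was taken as a member when the array named it by one of these symbols or described it as that S100 calcium binding protein. S100A4 was chosen by its measured signal, because it was higher at C1 than at NC1 on these same arrays, so its levels at NC1 and C1 are given as a description, with no test. The samples were bovine cumulus, the somatic layer around the oocyte, at 3 stages. For NC1, compact cumulus was aspirated after slaughter from the 3 to 6 mm follicles of 6 individual calves that were prepubertal (3 to 6 months old), and for C1 the same was done with 6 adult cows. C2 cells with an expanded cumulus came from 5 cycling, non-lactating Holstein cows aged 3 to 5 years. These cows had received progestagen implants, a total of 400 μg of a porcine FSH/LH preparation and prostaglandin F2α, and their follicles of more than 8 mm were collected 60 h after the prostaglandin. Age changed together with stage between NC1 and C1, and between C1 and C2 so did follicle size, hormones and collection, so that these cannot be told apart from stage.

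S100 proteins are small calcium sensors built around EF-hand loops. Most form dimers, and calcium opens a surface through which each binds its own partners, among them annexins, myosin and the receptor AGER (RAGE). Some members act inside many cell types, such as S100A4, S100A6, S100A10 and S100A11, while S100A8, S100A9 and S100A12, the calgranulins, are best known as abundant proteins of neutrophils and as released signals of inflammation. In the cumulus, the surge of gonadotropin opens a programme of matrix deposition and expansion that shares many genes with inflammation.

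In RefSeq's annotation of the assembly ARS-UCD2.0, 15 S100 genes lie on chromosome 3. The order there is S100A1, S100A13, S100A14, S100A16, S100A2, S100A3, S100A4, S100A5, S100A6, S100A7, S100A8, S100A12, S100A9, S100A11 and S100A10. S100A4 thus lies between S100A3, which had no probe identified on the array, and S100A5. The probe of S100A6 bears the name LOC618256 on the array, whose description calls it similar to human S100 calcium binding protein A6. RefSeq's table holds LOC618256 as a gene without an S100 symbol and has no gene under the symbol S100A6, so that the identity of this member, and its place in the order above, rest on the array's description. The probes of S100A1, S100A2, S100A8 and S100A9 bear LOC528735, MGC127936, LOC616818 and LOC532569. Coordinates are left out because no build is named for the array.

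The probes of the members that the results turn on are shown by their last 30 bases, positions 31 to 60 from the 5′ end, as an aid to telling these related genes apart. Capitals mark AATAAA or ATTAAA, the 2 commonest forms of the signal that precedes the end of a messenger RNA.
S100A4: agacgtgagcaccatactgaacaagttcaa
S100A1: ctttcATTAAAggcttctgtctccccagcc
S100A13: ctccccgcaAATAAAgctttctccttgaaa
S100A10: aaaagtcaATTAAAgccagataagcttttg
S100A11: tcctgttagtAATAAAacaatattgttttt
S100A8: cccctggactcgtgcctgcagagtAATAAA
S100A12: ccctgaggctgccttacccgagggaagaga
Over the whole probe, 6 of the 9 members with a deposited sequence held 1 of these letter strings on the printed strand, against 18.6% of the 15239 probes with a sequence. On the other strand, 0 of the 13 S100 probes with a sequence held one, against 7.13%. The longest run of bases that any 2 of these S100 probes shared, on either strand, was 9 of 60, in S100A8 and S100A11.

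Levels are given as log2 scaled signal, the log2 of the background-corrected signal minus the median of the array, so that 0 is the array's median probe. A probe was valid when 80% or more of the arrays in every stage had it present, and limma was fitted to all 13865 valid probes and 3 stages at once. The threshold was an adjusted p (Benjamini-Hochberg) of 0.01, and these p-values measure the spread between arrays. The fit takes 1 spread per probe for all 3 stages. The median SD over valid probes was 0.34 at NC1, 0.33 at C1 and 0.50 at C2. Of the 10 members, 9 were valid, and S100A9 was not. Between 66.2% and 82.8% of probes were well above background on an array, and array medians ran from 64.2 to 208 intensity units. FSHR and FOXL2, genes of granulosa and cumulus cells, were well above background on all 17 arrays, as was ZP3, a gene of the oocyte. The C2 arrays stood apart from each other. Replicates 1 and 5 differed from each other by an SD of 0.44 on the log2 scale over the valid probes, replicates 3 and 4 by 0.51, and the other pairs of C2 arrays by 1.05 to 1.27, while arrays within NC1 or C1 differed by 0.43 to 0.76. Replicates 3 and 4 were scanned on another day than replicates 1, 2 and 5, and are the only 2 C2 arrays of scan day 2. Comparisons of C2 within a scan day therefore cannot be told apart from this division of the C2 arrays.

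The member that set C1 apart from NC1 was S100A4 (A_73_118905), which binds non-muscle myosin and is known for its role in cell motility. On the 6 NC1 arrays it ranged from -0.55 to 1.04, with a median of 0.14. On the 6 C1 arrays it ranged from 2.51 to 5.76, with a median of 5.49. On the C2 arrays it was 4.51, -0.04, 3.46, 3.48 and 3.60 in replicates 1 to 5. Every C1 array lay above every NC1 array, 4 of the 5 C2 arrays did so as well, and C2 replicate 2 lay among the NC1 arrays. Its mean at NC1 was 0.19 ± 0.69 (SD, n = 6). Its mean at C1 was 4.86 ± 1.28 (SD, n = 6) and its C2 mean was 3.00 ± 1.76 (SD, n = 5). The difference of 4.67 between C1 and NC1 is a 25.5-fold ratio. At C2 the mean was 2.81 above NC1 (7.03-fold) and 1.86 below C1 (3.62-fold), with wide overlap between C2 and C1. Without C2 replicate 2 these differences were 3.57 and -1.09.

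The same fit that chose S100A4 placed 1 valid probe, its own, higher at C1 than at NC1 past the threshold (0.00721%) and 7 lower (0.0505%), which describes the choice and is no test of it. Its difference ranked as number 2, after the 4.87 of BOLA-NC1, a major histocompatibility gene, and before the 3.37 of BOLA-DQB1. The 3 probes higher at C1 that came next to the threshold by adjusted p, those of CB165338, BHLHE41 and H2BC26, had differences of 1.07, 1.23 and 1.14. These genes were named after their values were seen. Within scan day 1 the difference of S100A4 was 4.10 and within day 2 it was 5.24. In the one contrast at right angles to the choice of S100A4, C2 against the mean of NC1 and C1, S100A4 differed by 0.48 (SE 0.61, adjusted p = 0.548, limma), with an interval of -0.79 to 1.75. The sign of this small difference was not stable, and without C2 replicate 2 it was 1.24. The mean of NC1 and C1 lies between the 2 stage means of S100A4, 0.19 and 4.86. This contrast therefore cannot say whether C2 differs from either stage.

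The mean level of oocyte markers was also lower at C1 than at NC1. The mean log2 scaled signal over 10 oocyte markers on the array ranged from 0.24 to 1.30 on the NC1 arrays, from -3.70 to 0.06 on the C1 arrays and from -3.59 to -3.19 on the C2 arrays. Of the 4 oocyte markers with a valid probe, 0 passed the threshold between C1 and NC1 in limma, where 0.0577% of all valid probes did. Of these 4, 3 had an unadjusted p under 0.05, as did 9.84% of all valid probes. GDF9, NLRP5 and ZP3 fell past the threshold between NC1 and C2, where 12.6% of all valid probes fell. The part of these differences in the level of S100A4 was not tested. In whole samples such as these, fewer cells of a type and less RNA per cell cannot be told apart.

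**Figure D1:**
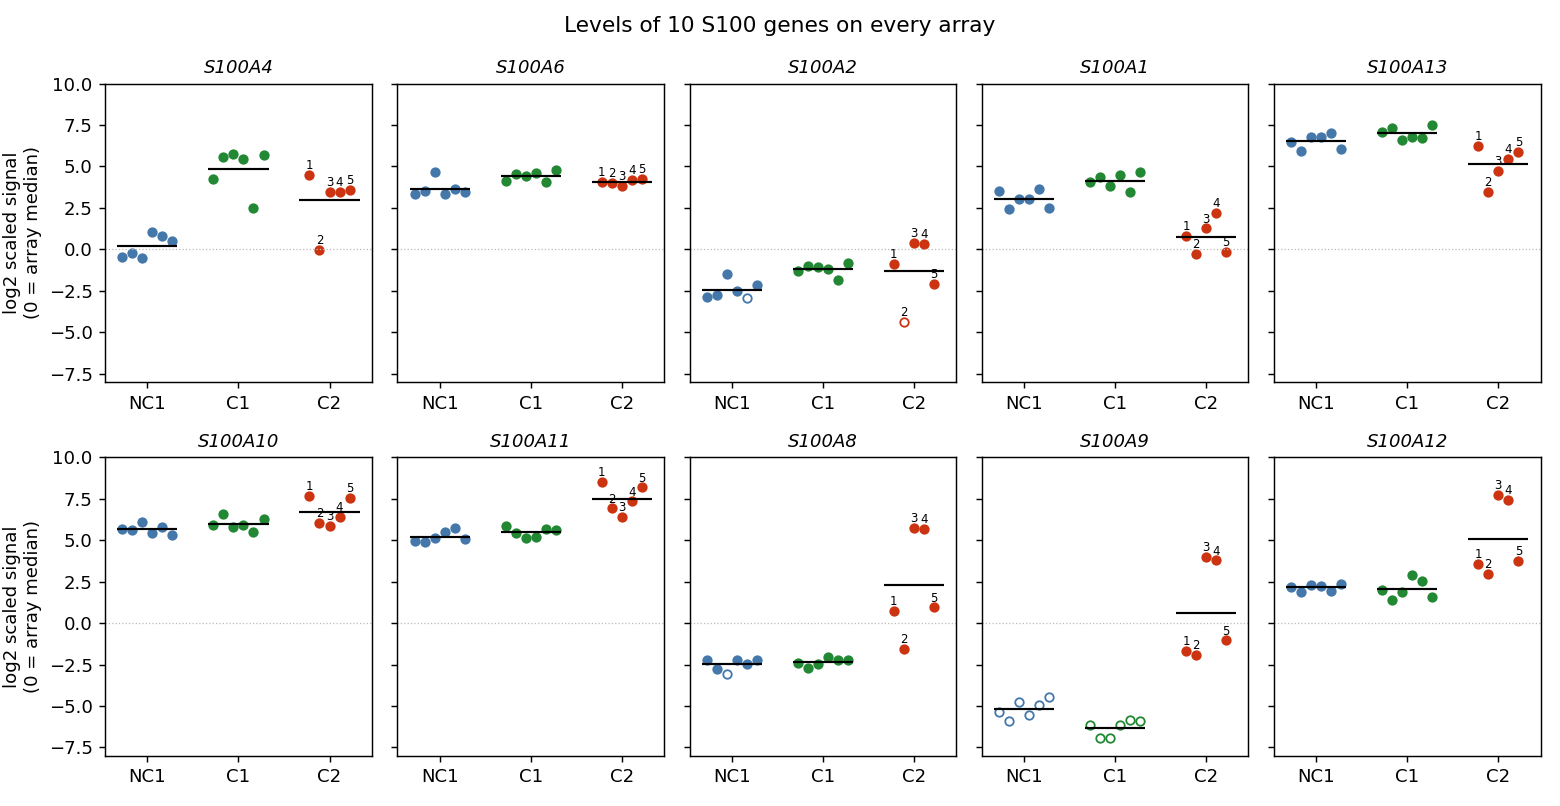
Log2 scaled signal (0 is the array's median probe) of the 10 S100 genes on each of the 17 arrays, by stage (NC1 n = 6, C1 n = 6, C2 n = 5), with black lines for the stage means, open circles for arrays where the probe was not well above background, and the replicate number above each C2 array. S100A4 stands near 0 at NC1 and mostly above 4 at C1, S100A1 falls at C2, and S100A8, S100A9 and S100A12 are highest in C2 replicates 3 and 4.

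The relatives of S100A4 differed far less between C1 and NC1. Of the 8 other valid members, 0 passed the threshold (limma, 0.0577% of all valid probes passed), and 3 had an unadjusted p under 0.05, as did 9.84% of all valid probes. Their median difference was 0.41, against 0.05 over all valid probes, and 7 of the 8 were higher at C1. The exception, S100A12, had a difference of -0.11, which turned to 0.11 with normexp background correction. S100A8, at 0.15, turned to -0.22 under the same correction.

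S100A2, S100A1 and S100A6 had the next largest differences. S100A2 (A_73_100329) ranged from -2.96 to -1.46 (median -2.62) at NC1, where 5 of 6 arrays were well above background, and from -1.83 to -0.81 (median -1.11) at C1. Of the C1 arrays, 5 of 6 lay above every NC1 array. The difference of 1.26 (SE 0.58) had an adjusted p of 0.486 and an exact 2-sided permutation p of 0.00433. S100A1 (A_73_100158) was 1.12 higher at C1 (SE 0.37, adjusted p = 0.225, exact permutation p = 0.00649), again with 5 of 6 C1 arrays above every NC1 array. S100A6 (A_73_118908), whose best known partner is CACYBP, ranged from 3.35 to 4.66 (median 3.47) at NC1 and from 4.07 to 4.77 (median 4.50) at C1. The difference was 0.77 (SE 0.21, adjusted p = 0.138, exact permutation p = 0.0152), and only 1 C1 array lay above every NC1 array, because NC1 replicate 3 was as high as the C1 arrays. With normexp background correction this difference was 1.05 and with array weights 0.83, and both passed the threshold. Array weights placed 61 valid probes higher and 178 lower at C1 past the threshold, against 1 and 7 in the main fit.

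**Figure D2:**
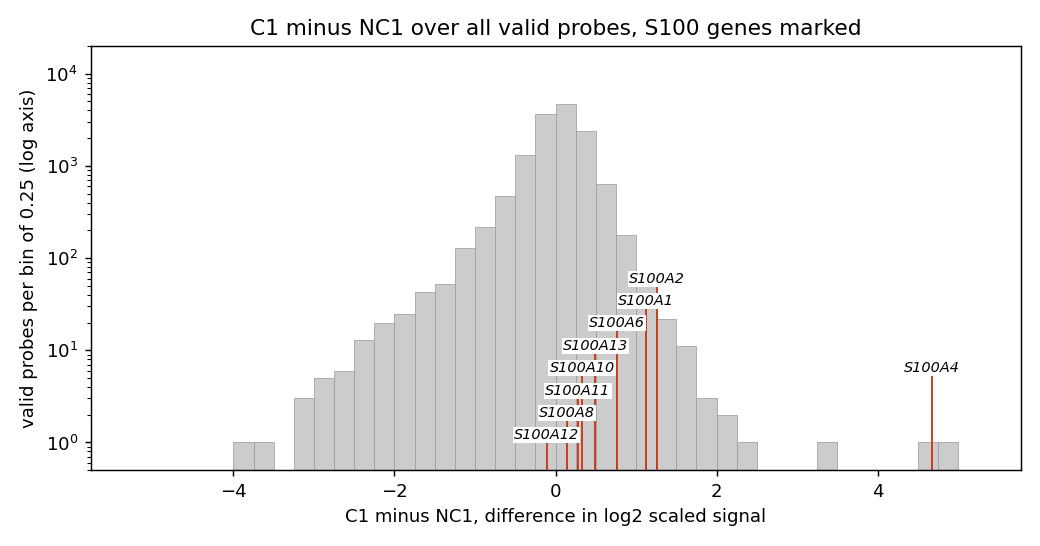
Histogram of the C1 minus NC1 difference in log2 scaled signal over the 13865 valid probes, in bins of 0.25 with a log axis for the number of probes, with red lines at the 9 valid S100 members. S100A4 lies at 4.67, far from the bulk of probes, and the other 8 lie between -0.11 and 1.26.

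Over the whole profile of 17 arrays, the 5 named genes most like S100A4, by the SD of the log2 ratio to it, were S100A2 with an SD of 1.77, FZD6 with 1.78, TPRG1L with 1.80, EPHA4 with 1.86 and SLC25A15 with 1.95. The median over the 10851 genes compared was 2.37, and the SD of S100A4 itself over the arrays was 2.36, so none of these ratios was steady. All arrays share 1 design and scaling.

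In comparison to C1, 5 of the 8 valid members other than S100A4 changed at C2 stage, 3 up and 2 down, where 28.1% of all valid probes changed. S100A8, S100A11 and S100A12 were over-expressed at C2, while S100A1 and S100A13 were down-regulated. The comparison to NC1 called 3 up and 2 down as well, with 28.1% of all valid probes changed. For 5 of the 8 members there was no overlap of C2 with C1 (21.6% of all valid probes), and for 4 of them none of C2 with NC1 (20.9%). The C2 against C1 and C2 against NC1 comparisons share the C2 arrays. Against the mean of NC1 and C1, 5 of 9 members passed the threshold, with 33.6% of all valid probes, and by the moderated F over the 3 stages 5 of 8 did, with 28.6%. Where all 5 C2 arrays lay on 1 side of all 6 arrays of another stage, the exact 2-sided permutation p was 0.00433, the smallest that 5 arrays against 6 allow.

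**Figure D3:**
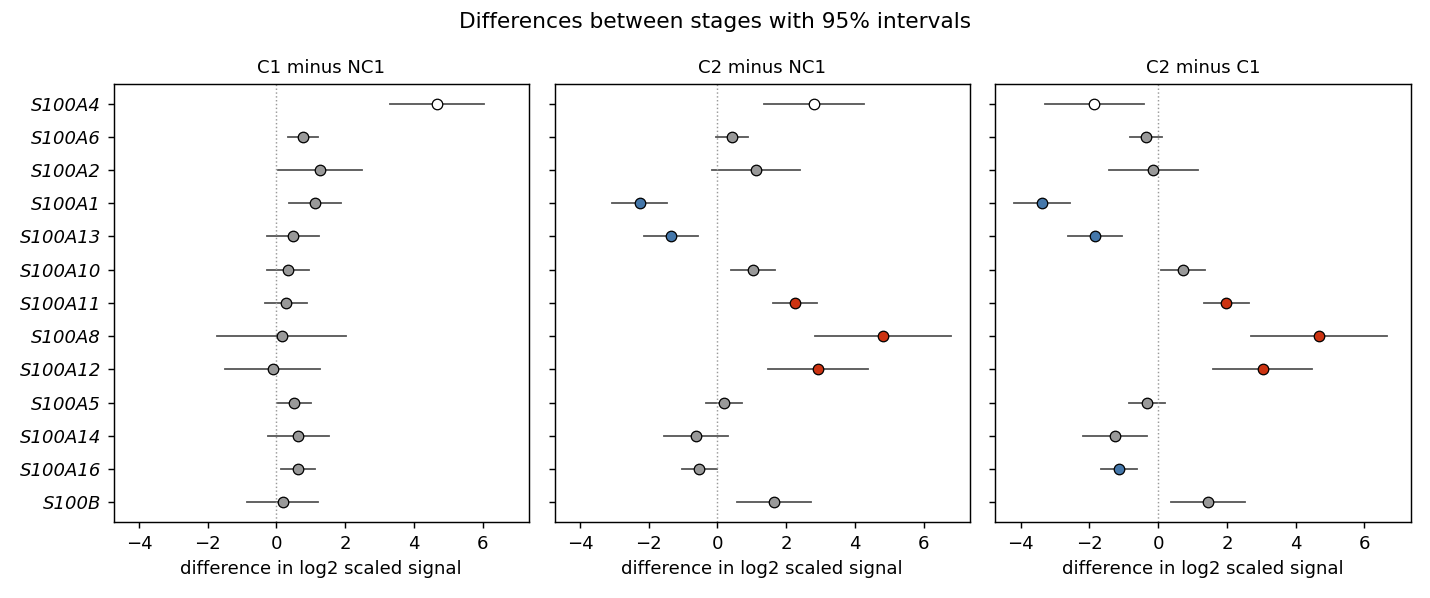
Differences in log2 scaled signal between stages, with 95% intervals from the limma fit, for 9 S100 members and 4 other S100 genes, in red where higher and in blue where lower past an adjusted p of 0.01, in grey where the threshold was not passed and in white for S100A4, which was not tested. S100A8, S100A11 and S100A12 lie to the right at C2 and S100A1 and S100A13 to the left against both other stages.

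The calgranulins S100A8, S100A9 and S100A12 were higher at C2 than at both other stages. S100A8 (A_73_109977), which pairs with S100A9 to form calprotectin, ranged from -3.04 to -2.22 (median -2.36) at NC1, with 5 of 6 arrays well above background, and from -2.70 to -2.03 (median -2.33) at C1. In C2 replicates 1 to 5 it was 0.74, -1.53, 5.76, 5.69 and 0.95. All C2 arrays lay above all arrays of the other stages, and replicates 3 and 4 lay far above the other three. The difference was 4.67 to C1 (SE 0.94, adjusted p = 0.000648, 25.5-fold) and 4.82 to NC1 (SE 0.94, adjusted p = 0.000501). The SD of S100A8 was 0.35 at NC1, 0.23 at C1 and 3.26 at C2. The spread shared by the stages, on which the SE and p rest, is thus smaller than that of C2.

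S100A12 (A_73_115208), a ligand of AGER, was the other valid calgranulin. Its level ranged from 1.91 to 2.36 (median 2.23) at NC1 and from 1.38 to 2.88 (median 1.95) at C1. In C2 replicates 1 to 5 it was 3.59, 2.95, 7.73, 7.42 and 3.73, again with no overlap and with replicates 3 and 4 far above. The difference was 3.04 to C1 (SE 0.69, adjusted p = 0.00174, 8.22-fold) and 2.93 to NC1 (adjusted p = 0.0024). Its SD was 0.19 at NC1, 0.58 at C1 and 2.30 at C2, so that here too the shared spread is smaller than that of C2.

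S100A9 (A_73_110650) could be told from background on 0 of 6 arrays at NC1, 0 of 6 at C1 and 5 of 5 at C2, and therefore was not among the valid probes. Its C2 levels were -1.66, -1.92, 4.01, 3.78 and -1.05, the same order of arrays as for its relatives, with replicates 3 and 4 highest. At C2 it was at least 26.4-fold higher than at C1 and at least 12.5-fold higher than at NC1. For these bounds, each array of the lower stage took the dimmest signal detected well above background on it. All C2 arrays lay above all others (exact 2-sided permutation test, p = 0.00433).

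The size of the calgranulin change rested on C2 replicates 3 and 4. Without both, a setting added once the levels were known, S100A8 was 2.40 above C1 (adjusted p = 0.00016) and S100A12 1.38 above C1 (adjusted p = 0.00128), next to 2.38 for S100A11. S100A9 was then at least 5.84-fold above C1 and at least 2.77-fold above NC1. Within scan day 1 the differences to C1 were 2.35 for S100A8 (adjusted p = 0.014) and 1.38 for S100A12 (adjusted p = 0.0136), and within day 2 they were 8.12 and 5.53. The ratio between calgranulins varied less than the genes themselves. Over the 5 C2 arrays the SD was 3.26 for S100A8, but 0.77 for the log2 ratio of S100A8 to S100A9, 0.73 for that of S100A9 to S100A12 and 1.08 for that of S100A8 to S100A12.

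Markers of neutrophils and other leukocytes followed more than 1 order of arrays. Over 20 markers on the array, the mean log2 scaled signal ranged from -0.68 to 0.18 at NC1, from -1.36 to -0.52 at C1 and from -0.82 to 1.17 at C2, and the log2 of their summed signal from 7.89 to 9.36, from 7.83 to 8.84 and from 6.54 to 9.54. The highest sums were mostly the signal of LTF, which alone was 9.21, 8.62 and 9.44 on those arrays. In C2 replicate 2, with the lowest sum, LTF was 4.51. Of the 13 markers with a valid probe, 7 rose and 0 fell from C1 to C2, where 15.3% of all valid probes rose and 12.8% fell, led by CD53 (3.35), LCP1 (3.16) and SPI1 (3.06). Against NC1, where 15.5% of all valid probes rose and 12.6% fell, 2 of 13 rose, PTPRC (CD45) by 0.99 and TYROBP by 0.92. LAPTM5, another leukocyte gene, was 3.61, -0.81, 1.95, 2.17 and 3.93 in C2 replicates 1 to 5, highest where the calgranulins were not. CD14, a receptor of monocytes and macrophages, rose by 1.22 over C1 and was 1.35, 0.26, 2.02, 2.08 and 1.61, highest in replicates 3 and 4 and lowest in replicate 2, as the calgranulins were. LCP1 had the order of LAPTM5, with 1.53, -2.40, -0.14, 0.24 and 2.42.

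Genes closer to neutrophils were mixed. CXCR1, a chemokine receptor of neutrophils, was well above background on 3 of 5 C2 arrays and was -4.59, -3.10, -1.60, -0.03 and -5.28 in replicates 1 to 5, highest in 3 and 4. CSF3R was also highest in those replicates, with -2.05 and -1.60. LTF (lactoferrin), a protein of neutrophil granules and of many secretions, was 9.44 and 8.28 in replicates 3 and 4 and between 4.51 and 5.20 in the others, but between 7.42 and 9.21 on all arrays of NC1 and C1. ITGAM, a defining integrin of neutrophils and macrophages, was well above background on 0 of 6 NC1, 0 of 6 C1 and 1 of 5 C2 arrays, and MPO on 0 of 6, 4 of 6 and 2 of 5. The part of leukocytes in the calgranulin result was not tested.

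**Figure D4:**
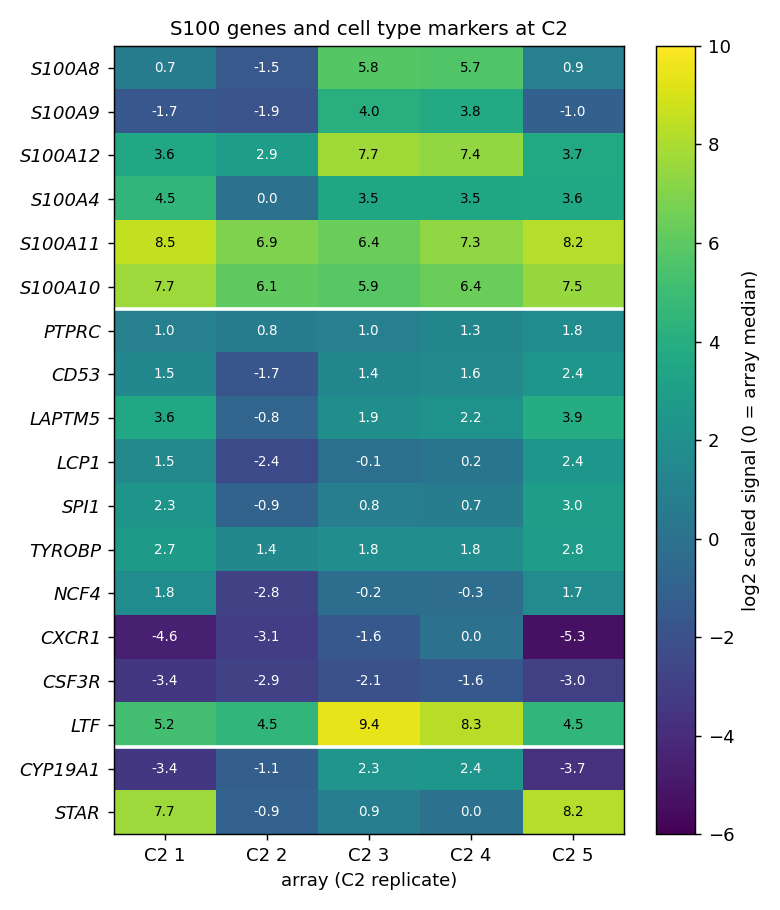
Log2 scaled signal of 6 S100 genes (top), 10 leukocyte markers (middle) and CYP19A1 and STAR (bottom) on the 5 C2 arrays, with the value in each cell and colour from low (dark) to high (yellow). S100A8, S100A9, S100A12, LTF and CYP19A1 are highest in replicates 3 and 4, whereas S100A10, S100A11, LAPTM5, SPI1 and STAR are highest in replicates 1 and 5.

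S100A11 and S100A10 are the members known for binding annexins, proteins that attach to membranes in the presence of calcium. S100A11 (A_73_115227), the partner of annexin A1, ranged from 4.88 to 5.72 (median 5.10) at NC1 and from 5.13 to 5.87 (median 5.53) at C1. In C2 replicates 1 to 5 it was 8.52, 6.92, 6.43, 7.34 and 8.19. All C2 arrays lay above all others, and replicates 1 and 5 were the highest, unlike the calgranulins. The difference was 1.99 to C1 (SE 0.31, adjusted p = 4.66e-05, 3.96-fold) and 2.26 to NC1 (adjusted p = 1.16e-05, 4.80-fold). It was 2.16 within scan day 1 and 1.62 within day 2 against C1.

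S100A10 (A_73_104422), which forms a complex with annexin A2, missed the threshold in the main fit. It ranged from 5.30 to 6.12 (median 5.65) at NC1 and from 5.47 to 6.59 (median 5.92) at C1, and was 7.66, 6.07, 5.85, 6.42 and 7.54 in C2 replicates 1 to 5. Replicates 1 and 5 were higher than any NC1 or C1 array, and the other three overlapped with C1. The difference was 0.72 to C1 (SE 0.31, adjusted p = 0.0692) with an interval of 0.07 to 1.36, and 1.05 to NC1 (adjusted p = 0.0106). With array weights the differences were 1.16 and 1.50 and passed the threshold. Without C2 replicates 1 and 5 they were 0.12 (adjusted p = 0.712) and 0.45 (adjusted p = 0.152), and within scan day 2 the difference to C1 was 0.04 (adjusted p = 0.939). The log2 ratio of S100A10 to S100A11 had an SD of 0.15 over the C2 arrays, where each gene had an SD of 0.84 and 0.87.

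Both annexin partners rose at C2. ANXA2 ranged from 5.30 to 6.00 at C1 and from 8.38 to 9.50 at C2, without overlap, a rise of 3.43 (adjusted p = 6.43e-10). ANXA1 ranged from -2.41 to 0.06 at C1 and from 0.34 to 4.16 at C2, a rise of 3.72 (adjusted p = 5.74e-05). The lowest C2 level of ANXA1 was in replicate 2 and the highest in replicates 5 and 1, while ANXA2 varied little. ANXA11 did not pass the threshold, with differences of 0.34 to C1 and 0.56 to NC1.

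**Figure D5:**
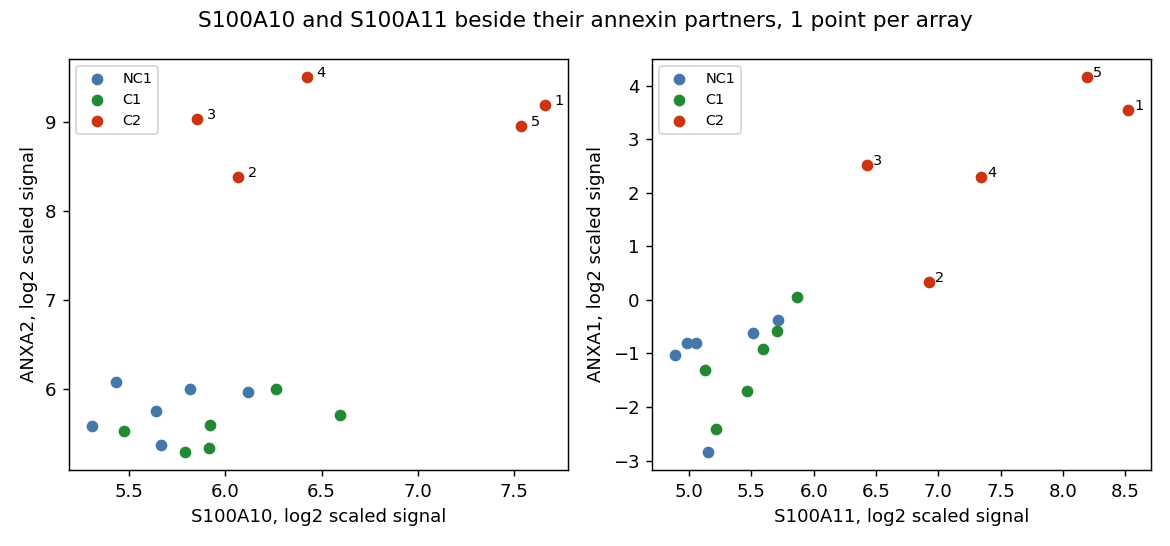
Log2 scaled signal of S100A10 against ANXA2 (left) and of S100A11 against ANXA1 (right), with 1 point per array in the colour of its stage and the replicate number beside each C2 array. The C2 arrays lie above 8 for ANXA2 whatever their S100A10, and C2 replicates 1 and 5 are highest for both S100A11 and ANXA1.

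Down-regulation at C2 stage was seen for S100A1 and S100A13. S100A1, best known as a regulator of calcium cycling in muscle, ranged from 2.42 to 3.67 (median 3.05) at NC1 and from 3.45 to 4.66 (median 4.24) at C1. In C2 replicates 1 to 5 it was 0.80, -0.28, 1.26, 2.21 and -0.16. All C2 arrays lay below all others. The difference to C1 was -3.38 (SE 0.38, adjusted p = 1.58e-06), a 10.4-fold fall, and that to NC1 was -2.26 (adjusted p = 0.000132), a 4.79-fold fall. Within the scan days the difference to C1 was -3.95 and -2.50. The difference to NC1 was -1.13 within day 2 and did not pass the threshold there (adjusted p = 0.0196).

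S100A13 (A_73_118996) takes part in the release of FGF1 from cells, together with SYT1. It ranged from 5.95 to 7.05 (median 6.62) at NC1 and from 6.61 to 7.51 (median 6.93) at C1, and was 6.25, 3.46, 4.75, 5.48 and 5.88 in C2 replicates 1 to 5. All C2 arrays lay below every C1 array and 4 of 5 below every NC1 array, with replicate 2 the lowest. The difference was -1.84 to C1 (SE 0.38, adjusted p = 0.000786, a 3.58-fold fall) and -1.35 to NC1 (adjusted p = 0.00835, exact permutation p = 0.0173). The call against NC1 lay close to the threshold and was lost under several other settings. These include normexp background correction (-1.09) and array weights (-0.88), and leaving out C2 replicate 2 gave -0.92. Within scan day 1 the difference to C1 was -1.90 and did not pass the threshold (adjusted p = 0.0605), and within day 2 it was -1.79 (adjusted p = 0.000874).
The 2 other proteins of that release complex were higher at C2. SYT1 ranged from -0.51 to 2.11 at C1 and from 5.28 to 6.46 at C2, a rise of 4.81 (adjusted p = 7.08e-08). FGF1 rose by 1.34 (adjusted p = 0.00133), with C2 replicate 5, at -0.61, within the range of C1.

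S100A6 and S100A2 did not pass the threshold at C2 in the main fit. S100A6 was 4.07, 4.03, 3.85, 4.19 and 4.24 in C2 replicates 1 to 5, with an SD of 0.15, and lay between C1 and NC1. It differed by -0.35 from C1 (interval -0.82 to 0.11, adjusted p = 0.217) and by 0.42 from NC1 (interval -0.05 to 0.88, adjusted p = 0.145). With normexp background correction its difference to NC1 was 0.59 and passed the threshold (adjusted p = 0.00525, limma). CACYBP, its partner, differed by 0.62 from C1 (adjusted p = 0.0513). S100A2 was -0.87, -4.36, 0.39, 0.31 and -2.10, and on replicate 2 it was not well above background. It lay on both sides of C1, with a difference of -0.14 (interval -1.42 to 1.15, adjusted p = 0.873), and it was 1.13 above NC1 (interval -0.16 to 2.41, adjusted p = 0.153). Without C2 replicate 2 the difference to NC1 was 1.88 and passed the threshold. Within scan day 2 the differences were 1.42 to C1 (adjusted p = 0.00254) and 2.38 to NC1 (adjusted p = 4.51e-05), while within day 1 they were -1.13 (adjusted p = 0.3) and 0.43 (adjusted p = 0.694).

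Of 7 other S100 genes with a probe, 4 were valid. S100A5, the neighbour of S100A4, was 0.51 higher at C1 than at NC1 (adjusted p = 0.487) and -0.32 from C1 at C2 (adjusted p = 0.318). S100A16, a widely expressed member, was the only one of the 4 to pass the threshold against C1, with a fall of 1.14 (SE 0.25, adjusted p = 0.00114) and all C2 arrays below all C1 arrays. This call was lost with array weights (-0.83, adjusted p = 0.0118), within scan day 1 (-0.79, adjusted p = 0.117) and without C2 replicates 3 and 4 (-0.79, adjusted p = 0.0168). Its C1 arrays lay above all NC1 arrays, as for 2.10% of valid probes, with a difference of 0.62 (adjusted p = 0.339). S100A14 differed by -1.26 from C1 (adjusted p = 0.029) and was lowest in C2 replicate 2, at 3.31. It passed the threshold without C2 replicate 1 (-1.61, adjusted p = 0.0047), without C2 replicate 5 (-1.56, adjusted p = 0.00768) and without both (-2.13, adjusted p = 6.14e-05).

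S100B, studied mostly in glia and melanocytes, divided the C2 arrays in another way. It was 3.26 and 3.05 in replicates 1 and 5, within the range of 2.90 to 3.99 of the other stages, and 6.19, 5.86 and 6.30 in replicates 2, 3 and 4. Its difference to C1 was 1.46 (adjusted p = 0.0294), and without replicates 1 and 5 it was 2.64 (adjusted p = 5.25e-07). S100G, a vitamin D-dependent calcium buffer of epithelia, was well above background in replicates 2, 3 and 4 alone of all 17 arrays, at -2.95, 1.79 and 0.64. With each C1 and NC1 array set to the dimmest signal detected well above background on it, the mean at C2 was 2.86-fold above C1 and 1.36-fold above NC1. The exact 2-sided permutation p was 0.039 against C1 and 0.139 against NC1. The C2 mean includes replicates 1 and 5, at -5.90 and -6.45, which were not well above background, so that these ratios are no strict bounds. S100A7 and S100Z were each well above background on 2 of 17 arrays.

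The proteins that S100 members bind were compared from a list of 24 partners and receptors, of which 21 had a valid probe. In comparison to C1, 6 rose at C2 (15.3% of all valid probes), with a median difference of 0.56 against 0.02 over all valid probes. In comparison to NC1, 7 rose and 0 fell (15.5% and 12.6%), with a median of 0.47 against 0.11. Between C1 and NC1, 0 of 21 passed the threshold in limma (0.0577% of all valid probes) and 2 had an unadjusted p under 0.05 (9.84% of all valid probes). After SYT1, ANXA1 and ANXA2, the next largest rise past the threshold was that of the myosin light chain MYL12B, at 1.56. MYH9, the non-muscle myosin heavy chain to which S100A4 binds, was 0.79 above C1, just short of the threshold, and rose by 0.97 over NC1 (adjusted p = 0.00255). AGER, the receptor of S100A12, differed by -0.26 from C1 and by 0.30 from NC1 and did not pass the threshold.

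Other EF-hand proteins moved in both directions. Of 19 with a valid probe, 5 rose and 3 fell against C1 (15.3% and 12.8% of all valid probes), and 6 rose and 3 fell against NC1 (15.5% and 12.6%). Between C1 and NC1, 0 passed in limma (0.0577% of all valid probes) and 2 had an unadjusted p under 0.05 (9.84%). The calpain CAPN2 rose by 2.22 over C1, while CALB2 (calretinin) fell by 2.39, EFHD1, a mitochondrial calcium sensor, by 2.26 and CIB2 by 1.79. The median difference was 0.28 to C1 and 0.39 to NC1, against 0.02 and 0.11 over all valid probes.

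Other marker lists are counted here for C2 against C1, beside the 15.3% of all valid probes that rose and the 12.8% that fell. Of 11 valid granulosa and cumulus genes 0 rose and 7 fell, among them FSHR by 3.55 and HSD17B1 by 6.46. Of 5 cumulus expansion genes 4 rose and 1 fell, with TNFAIP6 up by 6.63, PTX3 by 4.98 and HAS2 by 2.46, and BTC down by 4.57. Of 11 theca and stroma genes 2 rose and 1 fell, of 7 endothelial genes 2 rose and 0 fell, and of 2 valid red blood cell genes 1, HBA, fell. Among the theca and stroma genes LUM rose by 3.79 and COL1A1 by 1.15, while TCF21 fell by 2.03. The median difference of that list was -0.25. Among the endothelial genes KDR rose by 3.58, while PECAM1 differed by -0.70 and did not pass the threshold. The 2 valid probes of DCN disagreed. The brighter, used in the count, differed by -0.07 (adjusted p = 0.881, limma) and the other by 4.08 (adjusted p = 1.17e-05). STAR, which brings cholesterol to steroid synthesis, was 7.66 and 8.19 in C2 replicates 1 and 5, where S100A10 and S100A11 were highest, and at most 0.87 in the others. CYP19A1 (aromatase) was 2.34 and 2.43 in replicates 3 and 4 and at most -1.15 in the others. The defining endothelial gene CDH5 was well above background on 0 of 17 arrays. The part of these cell types and of the division among C2 arrays in the S100 results was not tested.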

How the data were processed

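The authors deposited linear spot intensity from Feature Extraction 10.5.1.1, background-subtracted and unscaled between arrays, and a table of log2 values scaled to the array median, with probe sequences. Here log2 of the signal was averaged over a probe's spots, without non-uniform or outlying spots, and the array's median was subtracted. Stages were compared with limma 3.58.1 in R 4.3.3 (statmod 1.5.0), tested on simulated data. Beside it stands, for single probes, a 2-sided exact permutation test in Python 3.11.15. SD is that between arrays, SE that of the fitted difference. Nothing in the array files ties replicate numbers of different stages together, and same-numbered arrays did not deviate together (correlations of -0.32 to 0.25), so numbers were not taken as pairs. The precision is limited by the number of arrays.

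The members, gene lists and tests were chosen with earlier results of these data known. Named are all S100 probes, genes of each list from among the largest differences past the threshold, its defining markers, the main S100 partners whatever their change, and the 5 genes most like S100A4. For a listed gene with more than 1 valid probe, its brightest was used. Gene symbols come from RefSeq gene IDs and accessions and otherwise from the array. The labels describe the source as ovarian follicles, and the study's methods as cumulus cells. Alternatives were another scaling, background correction, filter, weights, blocks and the omission of arrays. The result of 1 listed S100 partner is not reported here.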

Additional observations from a re-analysis of the deposited data

Results flagged for a closer look

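Among 51 groups of arrays (17 S100 probes at 3 stages), 2 held an array that lay far from the others of its stage, where chance flags about 1 in 20 groups. S100A4 in C2 replicate 2, at -0.04, lay below the next array at 3.46, a gap of 0.768 of the range of the stage. The other 4 C2 arrays spanned 3.46 to 4.51. The same array was the lowest of C2 for S100A2, S100A8, S100A9, S100A12, S100A13 and S100A1, and for the leukocyte genes CD53, LAPTM5 and LCP1, but not for S100A10, S100A11 or S100B. Its mean over the cumulus expansion genes was also the lowest of C2 (1.46, the others 2.78 to 3.35). So was that over the S100 partners and receptors (3.34, the others 4.01 to 4.28). Its mean over the granulosa and cumulus markers (4.90) was not. S100A6 in NC1 replicate 3, at 4.66, lay above the next NC1 array at 3.66, a gap of 0.759 of the range.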

How the results depend on the processing

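Against C1, the calls of S100A1 and S100A11 passed the threshold under every setting tried, and those of S100A8, S100A12 and S100A13 under all but 1, the values within scan day 1. There, with 3 arrays per stage, 2 of 8 members passed against C1, 3 against NC1 and 2 in the moderated F over the stages. Of the 13865 valid probes, 569 rose and 792 fell there against C1, and 621 rose and 776 fell against NC1. Between C1 and NC1, 1 member (S100A6) passed with normexp background correction, where 2 of all valid probes rose and 5 fell. With array weights 1 member passed, where 61 of all valid probes rose and 178 fell, against 1 and 7 in the main fit. With array weights 8 members passed the moderated F, against 5. The share of all valid probes past the F was counted for the main fit alone (28.6%). The methods' one-factor test called 5 members, and the share of all valid probes was not counted for it. With each array left out, 5 members were called against C1, 4 to 6 against NC1 and 0 between C1 and NC1. Against the mean of NC1 and C1, 5 to 7 were called, and by the F 5 to 6. Of all valid probes, 1741 to 2510 then rose and 1545 to 1785 fell against C1. Against NC1, 1744 to 2497 rose and 1520 to 1754 fell. Between C1 and NC1, 0 to 2 rose and 1 to 17 fell. Against the mean of NC1 and C1, 2127 to 2890 rose and 1796 to 2070 fell. The difference of S100A4 between C1 and NC1 was 4.49 to 5.14 in these fits.

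With the replicate number as a block, which pairs arrays that share only a number, 5 members were called against C1 and 4 against NC1, where S100A13 (-1.34, adjusted p = 0.0141) was lost, and the difference of S100A4 between C1 and NC1 was 4.67. Of all valid probes, 1740 rose and 1462 fell with this block against C1, and 1702 rose and 1386 fell against NC1.

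Several differences that had not passed the threshold changed sign. Against the mean of NC1 and C1, S100A4 was -0.22 without C2 replicates 1 and 5 and -0.0277 with close C2 arrays averaged. S100A2 against C1 was 0.22 with normexp, 1.42 within day 2, where it passed the threshold, and -0.265 to 0.62 with an array left out. S100A12 between C1 and NC1 was 0.11 with normexp, 0.0317 within day 1 and -0.2771 to 0.0214 with an array left out, and S100A8 there was -0.22 with normexp. S100A5 against C1 was 0.12 within day 1 and 0.0912 without C2 replicates 3 and 4, and against NC1 -0.43 within day 2 and -0.10 without C2 replicates 1 and 5. S100A14 against NC1 was 0.14 with array weights. The cause was not tested. The 75th percentile scaling moved the median of all valid probes against C1 from 0.02 to -0.11, and normexp that of C1 against NC1 from 0.05 to 0.20. The alternatives that leave out or average pairs of C2 arrays were chosen after the data were seen. Signals near background limit S100A9, S100G, S100A7 and S100Z.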
